A study of Homo sapiens with 12 samples.

Results

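The genes described here belong to symbol families linked to the axoneme, the microtubule shaft of motile cilia and sperm tails. They were taken from the count table by symbol. Every row named DNAH, DNAI, CFAP, RSPH, DRC or ODAD followed by a number was kept, which gave 66 of 25049 genes. Of the 66, 10 CFAP genes were assigned to none of the structures below and are called axonemal by symbol only. The family was selected on the basis of earlier paclitaxel fold changes in these data, led by the dynein heavy chain gene DNAH3, so the paclitaxel values of DNAH3 are given as a description without a test. All 12 samples are of MDA-MB-231b, a bone-tropic derivative of the human triple-negative breast cancer line MDA-MB-231 obtained by passage through the bone of nude mice. The 4 groups of 3 samples were GLI2 KO cells with 50 nM paclitaxel, GLI2 KO cells with DMSO, WT cells with 50 nM paclitaxel and WT cells with DMSO, each for 2 days. Both genotypes carry lentiviral CRISPR-Cas9, with a guide against GLI2, a transcription factor of the hedgehog pathway, in KO cells and a non-targeted guide in WT cells. Paclitaxel is a taxane that binds and stabilises microtubules, and DMSO is its solvent.

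In a motile axoneme, dynein motors sit in outer and inner rows on doublet microtubules and slide neighbouring doublets against each other. Radial spokes, the nexin-dynein regulatory complex and the central apparatus shape that sliding into a beat, and microtubule inner proteins brace the doublets from within. In the body this programme is switched on in multiciliated epithelium and in maturing sperm, by regulators that include FOXJ1, the RFX factors, GMNC and MCIDAS, and the heavy chains in use differ between cilia and sperm.

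Library totals ran between 83230948 and 109018776 counts, and a floor of 3 counts corresponded to between 0.0275 and 0.0360 CPM, the unit of levels here (counts scaled to a common library size). The paclitaxel libraries held a count for 24923 to 24985 genes, against 23712 to 24125 genes in the DMSO libraries, and the part of that difference in the results below was not tested. GLI2 itself had 3.97, 4.14 and 4.39 CPM in GLI2 KO cells with paclitaxel, against 6.42, 5.65 and 4.97 CPM in WT cells with paclitaxel. In DMSO it had 9.28, 8.23 and 10.1 CPM in GLI2 KO cells, against 10.4, 11.4 and 10.6 CPM in WT cells. GLI2 was lower in the KO libraries, by a log2 difference of -0.44 with paclitaxel (adjusted p = 0.000243) and -0.23 in DMSO (adjusted p = 0.0253), but its RNA was not lost, and gene totals do not show whether its coding sequence was cut. All 8 markers of MDA-MB-231 and mesenchymal breast cancer lines were present, with summed levels of 5623 to 6072 CPM in the paclitaxel libraries and 7193 to 7695 CPM in the DMSO libraries. Whether the 3 samples of a group were grown separately is not in the labels, so each p-value speaks only of variation among the sequenced samples, which could be of technical origin.

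Of the 66 genes, 34 averaged below 1 CPM over the 12 libraries, and the median of the 66 averages was 0.977 CPM. Per kb of exon, the highest averages belonged to CFAP20, a protein of the inner junction of doublets, at 29.3 CPM per kb, CFAP36 at 13.0 CPM per kb and CFAP97 at 11.9 CPM per kb. 4 genes, CFAP92, CFAP157, CFAP161 and CFAP52, with 55, 86, 39 and 30 counts over all 12 libraries, did not pass the filter on low counts, which left 62 genes tested. Of these, 16 did not reach the minimum of 10 counts in all 3 libraries of either DMSO group, and 13 of the 16 did in a paclitaxel group, so their presence in the test depended on their level under paclitaxel. For these 16 genes, as for DNAH3, changes under paclitaxel are given as a description without a test. Calls under paclitaxel were counted over the other 45 genes, beside all 18242 genes that reach the minimum in a DMSO group. At least 1 count was seen for all 66 genes in each GLI2 KO library with paclitaxel, against 62 to 64 genes in those with DMSO. In WT cells the numbers were 65 to 66 genes with paclitaxel and 61 to 66 with DMSO.

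Summed over the 66 genes, the level was higher with paclitaxel in GLI2 KO cells and, with TMM factors, lower in WT cells. It was 425 ± 4.72 CPM in GLI2 KO cells with paclitaxel and 395 ± 3.37 CPM in GLI2 KO cells with DMSO (SD, n = 3 each). In WT cells it was 401 ± 6.05 CPM with paclitaxel and 413 ± 2.73 CPM with DMSO (SD, n = 3 each). The direction in WT cells depends on the scaling, since scaling by library totals gave 425.8 CPM with paclitaxel and 393.0 CPM with DMSO. In GLI2 KO cells the size depends on it. There upper-quartile factors gave 439.3 against 375.1 CPM, and library totals 449.6 against 369.7 CPM. Without DNAH3 the sums in GLI2 KO cells were 410.5 CPM with paclitaxel and 395.1 CPM with DMSO. These sums rest on a few highly expressed genes, and the changes below are mostly in genes with little share in them.

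Since the family was selected on earlier paclitaxel fold changes, the paclitaxel shares and p-values below describe these genes and do not test the family. In GLI2 KO cells 24 of the 45 axonemal genes were higher under paclitaxel (53.3%), 8 were lower (17.8%) and 13 did not pass the test. Of all 18242 genes, 27.7% were called higher and 38.7% lower (adjusted p below 0.05). In WT cells 20 of 45 were higher (44.4%), 10 lower (22.2%) and 15 did not pass, against 28.7% called higher and 38.6% called lower among all genes. With upper-quartile factors 27 were higher and 4 lower in GLI2 KO cells, and 25 higher and 6 lower in WT cells, and with library totals 29 and 4 in GLI2 KO cells and 25 and 4 in WT cells. In bulk RNA, more cells that express a gene and more RNA per cell cannot be told apart. The median log2 change of the 45 genes was 0.33 in GLI2 KO cells and 0.275 in WT cells, with -0.060 and -0.051 over all 18242 genes. Of the 45 genes, 19 were higher in both genotypes (42.2%), 7 were lower in both (15.6%) and 9 passed in neither, while 21.6% of all genes were higher in both and 32.1% lower in both.

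Genes of low level rose more often throughout the table, so these shares were also read within 2 classes of level. Among the axonemal genes below 1 CPM, 8 of 15 were higher in GLI2 KO cells (53.3%) and 9 of 15 in WT cells (60.0%), while 34.8% and 39.2% of all genes below 1 CPM were. No axonemal gene at that level was called lower in either genotype by edgeR, while 7.68% and 6.65% of all genes were. At 1 CPM or more, 16 of 30 axonemal genes were higher in GLI2 KO cells (53.3%) and 11 of 30 in WT cells (36.7%), while 25.4% and 25.2% of all genes at that level were. In the same class 8 of 30 were lower in GLI2 KO cells (26.7%) and 10 of 30 in WT cells (33.3%), while 48.7% and 48.9% of all genes were. A rise of at least 2-fold was called for 10 of the 45 genes in GLI2 KO cells and 11 in WT cells, with 7.55% and 8.88% of all genes, and no axonemal gene fell that far, with 0.883% and 0.641% of all genes.

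**Figure D1:**
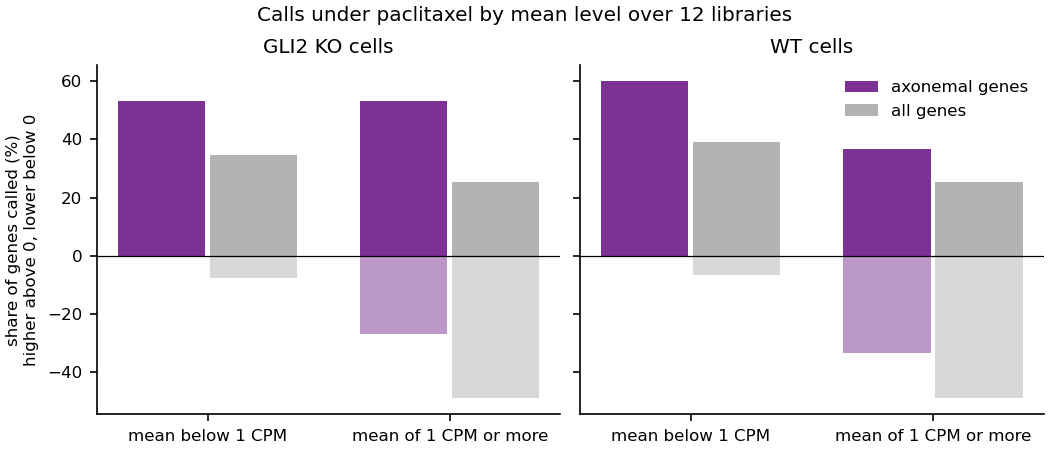
Share of genes called higher (bars above 0) or lower (paler bars below 0) under paclitaxel, in percent, for the 45 axonemal genes and for all 18242 genes at the count minimum in a DMSO group, split at a mean of 1 CPM over the 12 libraries. In both genotypes the axonemal bars reach further up than those of all genes, and at 1 CPM or more they reach less far down, as with 26.7% against 48.7% in GLI2 KO cells.

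DNAH3, a heavy chain of the single-headed inner arm dyneins, moved most. It lies on the minus strand of chromosome 16, from 20933111 to 21159441 in GRCh38. It had 12.2, 14.8 and 17.4 CPM in GLI2 KO cells with paclitaxel, against 0.269, 0.181 and 0.256 CPM in those with DMSO. The WT cells had 7.25, 7.17 and 6.60 CPM with paclitaxel, against 0.106, 0.0855 and 0.0903 CPM with DMSO. The treated and untreated libraries were far apart in each genotype, with a log2 change of 5.97 ± 0.16 (SE) in GLI2 KO cells and 6.18 ± 0.20 in WT cells. In counts, the treated libraries held 1097, 1373 and 1920 in GLI2 KO cells and 642, 646 and 669 in WT cells, and the untreated ones 21, 16 and 23 and 11, 7 and 8. The 10 tested genes nearest to DNAH3 did not share this change: 2 were called higher and 2 lower in GLI2 KO cells, with a median log2 change of 0.06, and in WT cells 3 were higher and 3 lower, with a median of 0.09.

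Other inner arm heavy chains rose from low levels. DNAH10, a heavy chain of the double-headed inner arm dynein f, had 3.41, 4.05 and 4.13 CPM in GLI2 KO cells with paclitaxel, against 0.346, 0.283 and 0.289 CPM with DMSO. In WT cells DNAH10 had 3.34, 3.19 and 2.95 CPM with paclitaxel, against 0.406, 0.379 and 0.271 CPM with DMSO. Every treated library lay above every untreated one, and DNAH10 rose by 3.66 ± 0.15 on the log2 scale in GLI2 KO cells (adjusted p = 3.72e-16) and by 3.15 ± 0.15 in WT cells (adjusted p = 4.42e-15). DNAH10 shares 16.6% of its exon bases with DNAH10OS on the other strand, whose own log2 change was 2.79 in GLI2 KO cells and 2.84 in WT cells. Without knowledge of the strand setting, reads of these genes cannot be told apart.

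DNAH12, another single-headed inner arm heavy chain, had 1.32, 1.83 and 2.04 CPM in GLI2 KO cells with paclitaxel, against 0.321, 0.227 and 0.200 CPM with DMSO. In WT cells DNAH12 had 1.45, 1.68 and 1.59 CPM with paclitaxel, against 0.309, 0.415 and 0.497 CPM with DMSO. The groups did not overlap, and DNAH12 rose by 2.81 ± 0.21 in GLI2 KO cells (adjusted p = 2.74e-11) and by 1.96 ± 0.20 in WT cells (adjusted p = 3.67e-09). DNAH1, an inner arm heavy chain of cilia and sperm, had 5.20, 5.05 and 5.18 CPM in GLI2 KO cells with paclitaxel, against 2.02, 2.04 and 3.21 CPM with DMSO. In WT cells DNAH1 had 9.25, 8.53 and 7.04 CPM with paclitaxel, against 3.18, 4.04 and 3.51 CPM with DMSO. It rose by 1.08 ± 0.16 in GLI2 KO cells (adjusted p = 4.25e-05) and by 1.21 ± 0.15 in WT cells (adjusted p = 5.6e-06), again with no overlap.

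The 2 heavy chains most abundant in DMSO differed from these. DNAH14 had 39.9, 39.6 and 40.3 CPM in GLI2 KO cells with paclitaxel, against 40.0, 42.5 and 41.8 CPM with DMSO, which overlap, and its log2 change of -0.053 did not pass the test (adjusted p = 0.192). In WT cells DNAH14 had 37.2, 37.8 and 36.1 CPM with paclitaxel, against 42.9, 43.8 and 42.3 CPM with DMSO, and fell by 0.22 ± 0.04 (adjusted p = 7.79e-06), a call that is lost when libraries are scaled by their totals (-0.06). DNAH2, the partner of DNAH10 in dynein f, had a log2 change of -0.10 in GLI2 KO cells (adjusted p = 0.105) and -0.12 in WT cells (adjusted p = 0.0699). DNAH6 and DNAH7, both single-headed inner arm heavy chains, had log2 changes of 0.72 ± 0.17 and 0.71 ± 0.15 in GLI2 KO cells, which both passed. In WT cells DNAH6 rose by 1.05 ± 0.18, and DNAH7 had 0.39 ± 0.18, which did not pass (adjusted p = 0.0566).

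Of the remaining inner arm genes, the intermediate chains DNAI3 and DNAI4 rose in both genotypes, by 1.35 ± 0.22 and 1.67 ± 0.23 in GLI2 KO cells and by 0.93 ± 0.26 and 1.48 ± 0.24 in WT cells. CFAP43, part of the tether that anchors the dynein f motor domains, rose by 1.47 ± 0.24 in GLI2 KO cells and by 1.41 ± 0.31 in WT cells, while its partner CFAP44 fell by 0.19 ± 0.06 and by 0.22 ± 0.06. The fall of CFAP44 is lost in both genotypes with upper-quartile factors (-0.07 in GLI2 KO and -0.09 in WT cells) and library totals (-0.012 and -0.07), and in GLI2 KO cells, where the treatments overlap, also with a minimum count of 50 (-0.13), in a fit of the 2 groups alone (-0.17) and without DMSO replicate 3 (-0.10). CFAP57, an inner arm adaptor, rose by 1.15 ± 0.16 and by 1.23 ± 0.17. Over the 13 inner arm and tether genes counted, without DNAH3 and DNAI7, 9 were higher and 1 lower in GLI2 KO cells. In WT cells 8 of them were higher and 2 lower. Beside this and the counts by structure below, 27.7% of all 18242 genes were higher and 38.7% lower in GLI2 KO cells. The shares in WT cells were 28.7% and 38.6%.

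**Figure D2:**
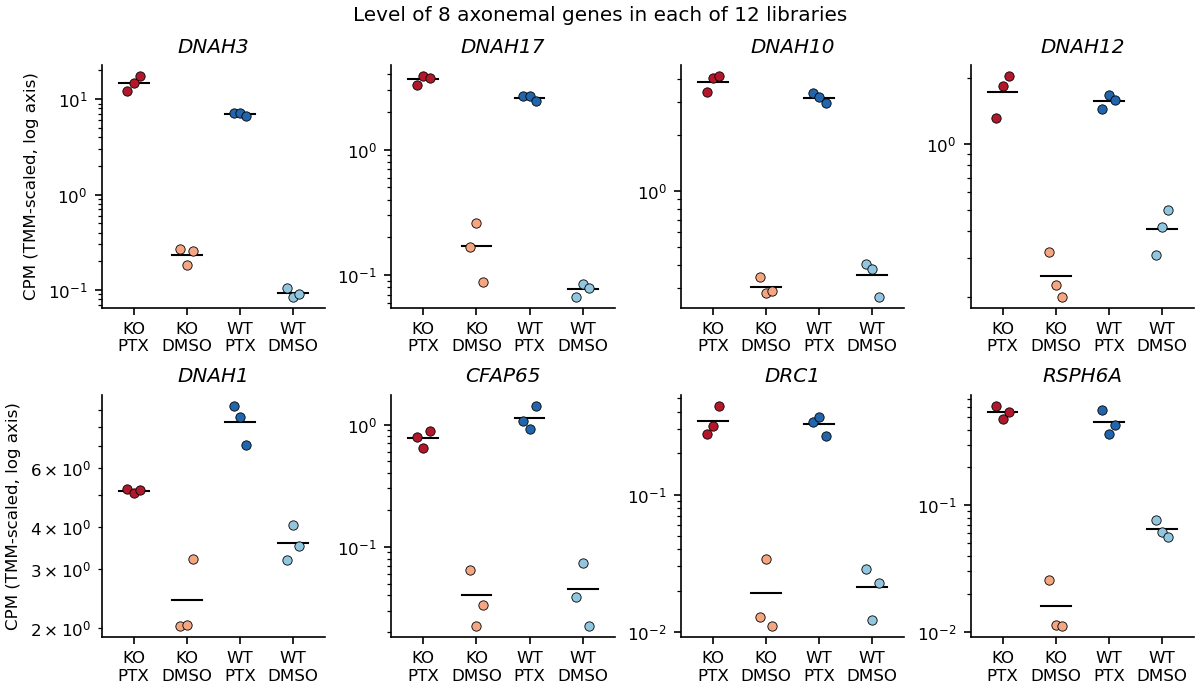
CPM on a log axis of 8 axonemal genes in each of the 12 libraries (dots) with group means (bars), for GLI2 KO (KO) and WT cells with paclitaxel (PTX) or DMSO. The 8 genes were picked from those with a rise under paclitaxel, so the direction in the panels follows from that choice. Genes that fell or did not pass, such as ODAD2 and DNAH2, are not shown. In each panel the paclitaxel libraries lie above the DMSO libraries of the same genotype. The margin is widest for DNAH3, at 12.2 to 17.4 CPM against 0.181 to 0.269 CPM in GLI2 KO cells.

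DNAH17, an outer arm heavy chain known from sperm tails, on the minus strand of chromosome 17 from 78423697 to 78577394 in GRCh38, had 3.30, 3.85 and 3.75 CPM in GLI2 KO cells with paclitaxel, against 0.167, 0.261 and 0.0889 CPM with DMSO. In WT cells DNAH17 had 2.70, 2.67 and 2.43 CPM with paclitaxel, against 0.0676, 0.0855 and 0.0790 CPM with DMSO. Its log2 change was 4.39 ± 0.19 in GLI2 KO cells and 5.06 ± 0.22 in WT cells, without overlap. Its antisense gene DNAH17-AS1 shares 9.7% of its exon bases and changed by 0.78 in GLI2 KO cells and 3.17 in WT cells.

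DNAH11 and DNAH5, the outer arm heavy chains of airway cilia, were expressed at several CPM in every library. DNAH11 had 8.45, 8.45 and 9.43 CPM in GLI2 KO cells with paclitaxel, against 6.92, 6.77 and 6.28 CPM with DMSO, and rose by 0.40 ± 0.07 (adjusted p = 2.54e-05). DNAH11 in WT cells had 5.40, 5.38 and 5.01 CPM with paclitaxel, against 3.73, 3.65 and 4.12 CPM with DMSO, and rose by 0.46 ± 0.08 (adjusted p = 1.58e-05). DNAH5 rose by 0.22 ± 0.07 in GLI2 KO cells (adjusted p = 0.00782) and had -0.11 ± 0.07 in WT cells (adjusted p = 0.171).

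The intermediate chain DNAI1, a core subunit of the outer arm, stayed near the floor in DMSO. It had 0.188, 0.345 and 0.245 CPM in GLI2 KO cells with paclitaxel, against 0, 0.0227 and 0.0222 CPM with DMSO, a log2 change of 3.94 ± 0.64. DNAI1 in WT cells had 0.0339, 0.0998 and 0.118 CPM with paclitaxel, against 0.0193, 0 and 0.0339 CPM with DMSO. The log2 change there was 2.15 ± 0.74. CFAP70, an outer arm linked protein, rose by 1.19 ± 0.10 in GLI2 KO cells and by 1.14 ± 0.10 in WT cells.

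ODAD2, a docking protein that seats the outer arm on the doublet, went the other way. It had 5.65, 5.21 and 6.18 CPM in GLI2 KO cells with paclitaxel, against 7.70, 8.20 and 8.78 CPM with DMSO, and fell by 0.53 ± 0.07 (adjusted p = 6.27e-07). In WT cells it had 5.57, 5.70 and 6.23 CPM with paclitaxel, against 8.82, 8.98 and 9.12 CPM with DMSO, and fell by 0.62 ± 0.07 (adjusted p = 4.81e-08). The docking genes ODAD1 and ODAD3 passed in neither genotype. ODAD4, the other docking gene here, was among those too low in DMSO to be tested under paclitaxel, with a log2 change of 1.49 ± 0.505 in GLI2 KO cells and 0.78 ± 0.49 in WT cells. Over the 8 outer arm and docking genes counted, 3 were higher (37.5%) and 1 lower (12.5%) in GLI2 KO cells. In WT cells 2 were higher and 2 lower (25.0% each), beside 28.7% and 38.6% of all genes. The other lower gene in WT cells was CFAP298, which fell by 15.4%. That call is lost with upper-quartile factors (log2 change -0.107), library totals (-0.084) and a minimum count of 50 (-0.172). It is also lost without any 1 of WT DMSO replicates 1 and 3 and WT paclitaxel replicate 3 (-0.215 to -0.177).

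Of the 7 radial spoke and nexin-dynein regulatory complex genes counted, 6 were higher and 1 lower in GLI2 KO cells, and 4 were higher and none lower in WT cells. The gene that fell was DRC12, a protein of the complex (-0.39 ± 0.145, adjusted p = 0.0208), a call lost with upper-quartile factors (-0.27), library totals (-0.215) and without any 1 of DMSO replicate 3 and paclitaxel replicates 1 and 3 (-0.38 to -0.28). The other 6 tested genes of these structures were too low in DMSO to be counted. DRC1, which builds the base of the nexin link, had 0.277, 0.313 and 0.444 CPM in GLI2 KO cells with paclitaxel, against 0.0128, 0.0340 and 0.0111 CPM with DMSO. In WT cells DRC1 had 0.339, 0.366 and 0.267 CPM with paclitaxel, against 0.0290, 0.0122 and 0.0226 CPM with DMSO. The untreated libraries held 1 to 3 counts each, and the log2 change of DRC1 was 4.06 ± 0.48 in GLI2 KO cells and 3.80 ± 0.47 in WT cells.

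RSPH6A, a spoke head protein known from mouse testis and a paralog of RSPH4A, had 0.620, 0.485 and 0.553 CPM in GLI2 KO cells with paclitaxel, against 0.0256, 0.0113 and 0.0111 CPM with DMSO. In WT cells RSPH6A had 0.576, 0.366 and 0.434 CPM with paclitaxel, against 0.0773, 0.0611 and 0.0565 CPM with DMSO. The treated libraries of the genotypes overlap and the untreated ones do not, with log2 changes of 5.03 ± 0.42 in GLI2 KO cells and 2.78 ± 0.33 in WT cells. RSPH4A, the spoke head protein of airway cilia, rose by 0.86 ± 0.24 in GLI2 KO cells and by 1.38 ± 0.25 in WT cells. The spoke head gene RSPH1, too low in DMSO to be tested here, had log2 changes of 1.11 ± 0.40 and 1.88 ± 0.45.

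RSPH10B had 49 counts in GLI2 KO cells with paclitaxel and 3 with DMSO, a ratio of 16.1 with a 95% counting interval of 5.21 to 80.9 after correction for library size. For RSPH10B in WT cells these were 44 and 3 counts, a ratio of 16.0 (5.13 to 80.5). The gene has a near-identical copy, and its values are uncertain. CFAP263 and CFAP184, which act together beside the spokes, rose by 1.76 ± 0.11 and by 0.33 ± 0.12 in GLI2 KO cells, the second a call lost without any 1 of DMSO replicates 1 and 3 and paclitaxel replicates 1 and 2 (0.235 to 0.31). In WT cells CFAP263 rose by 0.86 ± 0.10 and CFAP184 had 0.28 ± 0.14 (adjusted p = 0.0838). CFAP251, a spoke-linked protein at a higher level, had 17.0, 19.3 and 19.1 CPM in GLI2 KO cells with paclitaxel, against 11.2, 11.5 and 9.66 CPM with DMSO. In WT cells CFAP251 had 18.2, 17.8 and 18.6 CPM with paclitaxel, against 10.1, 10.1 and 10.4 CPM with DMSO, so this abundant gene also separated the treatments fully. It rose by 0.78 ± 0.06 in GLI2 KO cells (adjusted p = 3.93e-11) and by 0.84 ± 0.06 in WT cells (adjusted p = 1.11e-11).

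Of the 3 central apparatus genes counted, CFAP46, CFAP54 and CFAP69, 2 were higher in each genotype and none was lower. CFAP65, required for sperm tail assembly in mice, had 0.787, 0.647 and 0.879 CPM in GLI2 KO cells with paclitaxel, against 0.0641, 0.0227 and 0.0333 CPM with DMSO. In WT cells CFAP65 had 1.06, 0.921 and 1.43 CPM with paclitaxel, against 0.0386, 0.0733 and 0.0226 CPM with DMSO. Its log2 change was 4.26 ± 0.36 in GLI2 KO cells and 4.66 ± 0.33 in WT cells. Of the 10 tested genes nearest to CFAP65, 6 were called higher and 3 lower in each genotype. CFAP221, also too low in DMSO to be tested here, had log2 changes of 2.64 ± 0.59 in GLI2 KO cells and 1.67 ± 0.60 in WT cells. CFAP46 had 0.44 ± 0.20 in GLI2 KO cells, which did not pass (adjusted p = 0.0557), and rose by 0.49 ± 0.20 in WT cells (adjusted p = 0.0355), which is lost by DESeq2 (0.49) and without any 1 of WT replicates 2 and 3 of either treatment (0.335 to 0.51). CFAP54 rose in both genotypes, and in GLI2 KO cells the call is lost in a fit of the 2 groups alone (0.74) and without any 1 of replicates 1 and 2 with DMSO and 2 and 3 with paclitaxel (0.45 to 0.76).

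Among the 7 microtubule inner proteins counted, 4 were higher and 1 lower in each genotype. CFAP68, which shares 20.4% of its exon bases with FDXACB1, was higher by 15.8% in GLI2 KO cells and by 21.9% in WT cells. CFAP96 had 0.521, 0.593 and 0.435 CPM in GLI2 KO cells with paclitaxel, against 0.179, 0.227 and 0.167 CPM with DMSO. In WT cells CFAP96 had 0.565, 0.477 and 0.553 CPM with paclitaxel, against 0.106, 0.0489 and 0.0903 CPM with DMSO. The treated libraries reached like levels in the genotypes, and the rise was 1.42 ± 0.26 in GLI2 KO cells (adjusted p = 3.68e-05) and 2.65 ± 0.30 in WT cells (adjusted p = 2.66e-08). CFAP141, too low in DMSO to be tested here, had log2 changes of 2.04 ± 0.47 in GLI2 KO cells and 2.45 ± 0.43 in WT cells. CFAP45 and CFAP53, whose loss disturbs left-right patterning in humans, rose by 0.56 ± 0.08 and 0.61 ± 0.11 in GLI2 KO cells and by 0.32 ± 0.07 and 0.77 ± 0.11 in WT cells. The 1 that fell, CFAP20, is the most abundant per kb: it fell by 0.27 ± 0.03 in GLI2 KO cells and by 0.20 ± 0.03 in WT cells, where the call is lost with upper-quartile factors (-0.07) and library totals (-0.04).

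Of the 7 remaining CFAP genes counted, 4 were lower and none higher in GLI2 KO cells, and 5 were lower and none higher in WT cells. These genes were assigned to none of the structures above, which does not place them outside the axoneme. CFAP99, too low in DMSO to be counted, had 33 counts with paclitaxel against 3 with DMSO in GLI2 KO cells (a ratio of 10.9, counting interval 3.41 to 55.4), and a log2 change of 1.52 ± 0.53 in WT cells. CFAP97 had 69.2, 69.8 and 70.4 CPM in GLI2 KO cells with paclitaxel, against 74.8, 74.1 and 71.5 CPM with DMSO. In WT cells CFAP97 had 87.6, 87.4 and 84.9 CPM with paclitaxel, against 113, 114 and 109 CPM with DMSO. The treatments did not overlap, and it fell by 0.37 ± 0.03 in WT cells (adjusted p = 7.52e-11). In GLI2 KO cells it fell by 0.074 ± 0.03 (adjusted p = 0.0368), but its direction turns with upper-quartile factors (0.05) and library totals (0.10). The call is also lost by DESeq2 (-0.07), with RLE factors (-0.065), with a minimum count of 50 (-0.014), in a fit of the 2 groups alone (-0.052) and without any 1 of 4 libraries (-0.08 to -0.06), namely DMSO replicates 1 and 2 and paclitaxel replicates 1 and 2. CFAP58 fell by 0.28 ± 0.11 in GLI2 KO cells (adjusted p = 0.0286), a call lost with upper-quartile factors (-0.155), library totals (-0.10), a minimum count of 50 (-0.217) and without any 1 of DMSO replicates 1 and 2 and paclitaxel replicates 1 and 3 (-0.283 to -0.253). In WT cells CFAP58 fell by 0.40 ± 0.115 (adjusted p = 0.0036), with overlapping treatments, and the call is lost with library totals (-0.245). CFAP418 had -0.15 ± 0.08 in GLI2 KO cells (adjusted p = 0.093) and fell by 0.24 ± 0.08 in WT cells (adjusted p = 0.0131). That call is lost with upper-quartile factors (-0.11), library totals (-0.087) and a minimum count of 50 (-0.174), and without WT DMSO replicates 1 or 3 or WT paclitaxel replicate 1 (-0.22 to -0.21).

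CFAP119 and CFAP410 fell by 0.74 ± 0.07 and 0.50 ± 0.06 in GLI2 KO cells and by 0.68 ± 0.08 and 0.62 ± 0.06 in WT cells. CFAP119 shares 78.7% of its exon bases with PHKG2 and CFAP410 shares 60.4% with an overlapping gene, so their counts may hold reads of others. PHKG2 itself changed by -0.41 in GLI2 KO cells and by -0.275 in WT cells, and the gene that overlaps CFAP410 by 0.99 and by 0.675. In all, 10 of the 66 genes share over 20% of their exon bases with another gene, and leaving them out gave 4 lower genes in GLI2 KO cells and 6 in WT cells.

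**Figure D3:**
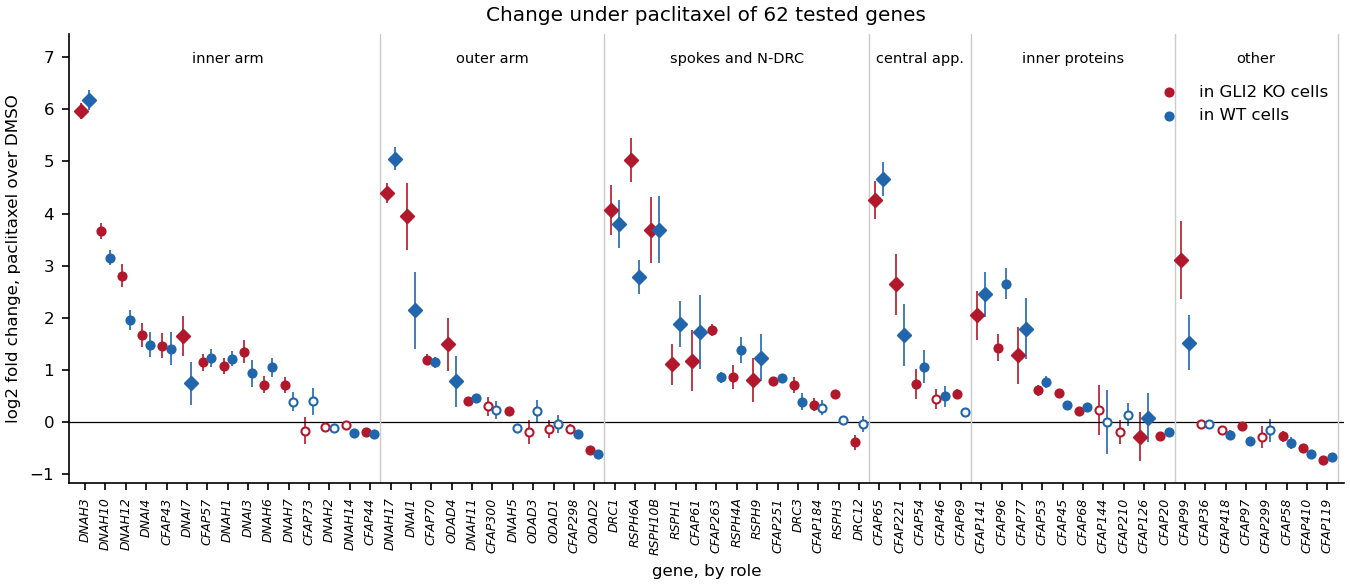
Log2 fold change of paclitaxel over DMSO in GLI2 KO cells (red) and WT cells (blue) for the 62 tested genes, by role, with standard errors as bars. Filled circles passed the test, open circles did not, and diamonds mark DNAH3 and the 16 genes short of the count minimum in DMSO, which were not tested here. The tall values at the left of most groups, such as 5.97 and 6.18 for DNAH3, contrast with values near or below 0 at their right ends and through most of the last group.

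Per exon length, these changes altered which heavy chains were most abundant. DNAH14 led in every group, with 33.2% of the summed CPM per kb of the 11 heavy chains in GLI2 KO cells with paclitaxel and 49.5% in those with DMSO, and 38.1% and 55.1% in WT cells with paclitaxel and with DMSO. DNAH3 ranked 2 of 11 in GLI2 KO cells with paclitaxel (16.2%) and 10 in those with DMSO (0.370%). In WT cells it ranked 4 with paclitaxel (9.49%) and 10 with DMSO (0.159%). DNAH17, last in both DMSO groups, ranked 8 in both paclitaxel groups, with 3.69% in GLI2 KO and 3.27% in WT cells. Summed over the 11 heavy chains, the level was 105 ± 4.05 CPM in GLI2 KO cells with paclitaxel against 77.0 ± 2.87 CPM with DMSO. In WT cells it was 85.1 ± 3.16 CPM with paclitaxel against 72.1 ± 1.45 CPM with DMSO (SD, n = 3 each). DNAH3, which led the selection of the family, is a large part of these differences. Its means were 14.8 against 0.235 CPM in GLI2 KO cells and 7.01 against 0.0940 CPM in WT cells.

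**Figure D4:**
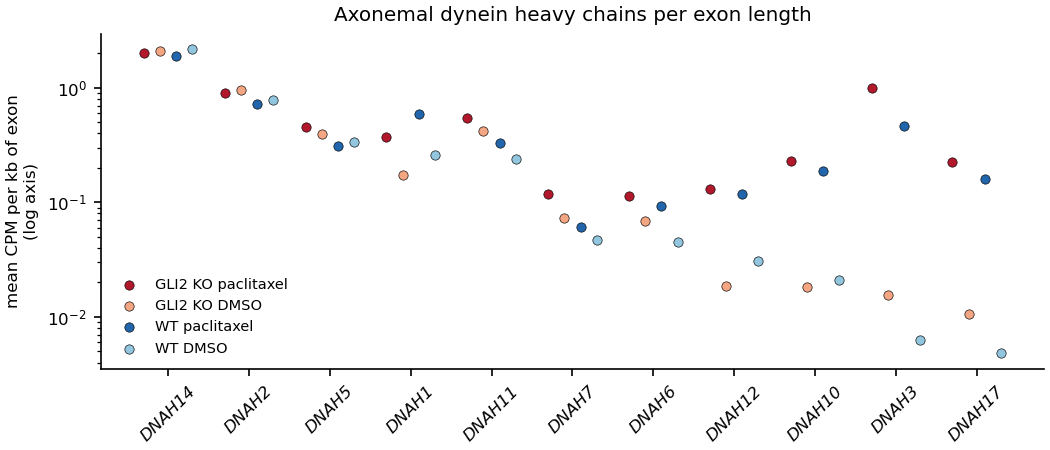
Mean CPM per kb of exon, on a log axis, of the 11 dynein heavy chains in the 4 groups, ordered by their level in WT cells with DMSO. DNAH14 at the left ranks 1 in every group, while DNAH12, DNAH10, DNAH3 and DNAH17 at the right are far higher in both paclitaxel groups than in the DMSO groups.

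Promoter sequences were available for 56 of the 66 genes, which do not include DNAH3 and DNAH17. The X-box, bound by RFX factors, was searched as 1 arm of the palindrome, GTTGCCA, and as the full palindrome with a free centre, on both strands, in the window from 250 bases before to 50 bases after each gene's start. The arm was present in 18 of the 56 genes (32.1%), against 1360 of 27305 genes in the RefSeq table (4.98%). The full X-box was present in CFAP45 and DNAH1 (3.57%), against 0.593% of all genes. The forkhead motif TGTTTAC was present in 2 of the 56 (3.57%), against 4.19% of all genes, and TATAAA in 2 (3.57%), against 14.0%. The 5 promoters below are shown because their genes are heavy chains or nexin link genes with the arm, of which DNAH1, DNAH10 and DNAH12 rose in both genotypes, DNAH2 passed in neither and DRC1 is described above without a test. They are the RefSeq entries of GRCh38.p14, written 5′ to 3′ along the gene, with the arm (GTTGCCA, or TGGCAAC where it lies on the other strand) or full X-box in capitals. In DNAH1 an arm lies apart from the X-box, and the X-box itself holds the arm on both strands.
DNAH1 promoter, chr3:52316069-52316368, plus strand: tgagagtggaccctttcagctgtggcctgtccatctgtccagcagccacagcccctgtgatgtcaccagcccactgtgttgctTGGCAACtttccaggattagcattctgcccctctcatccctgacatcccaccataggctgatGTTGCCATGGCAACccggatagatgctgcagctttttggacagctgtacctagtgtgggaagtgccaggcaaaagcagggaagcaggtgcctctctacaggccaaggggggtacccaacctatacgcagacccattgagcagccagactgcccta
DNAH10 promoter, chr12:123762051-123762350, plus strand: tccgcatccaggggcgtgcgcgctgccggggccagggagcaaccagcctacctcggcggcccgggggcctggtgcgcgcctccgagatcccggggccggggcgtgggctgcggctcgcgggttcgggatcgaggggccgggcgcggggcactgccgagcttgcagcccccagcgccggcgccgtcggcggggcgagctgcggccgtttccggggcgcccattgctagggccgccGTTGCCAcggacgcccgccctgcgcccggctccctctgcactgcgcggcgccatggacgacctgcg
DNAH12 promoter, chr3:57544295-57544594, minus strand: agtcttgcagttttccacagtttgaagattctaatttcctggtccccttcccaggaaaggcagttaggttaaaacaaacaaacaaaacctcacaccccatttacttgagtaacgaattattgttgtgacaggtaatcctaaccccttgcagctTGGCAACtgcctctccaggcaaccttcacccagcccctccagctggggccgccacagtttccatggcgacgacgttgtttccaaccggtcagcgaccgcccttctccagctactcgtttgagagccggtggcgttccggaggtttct
DRC1 promoter, chr2:26401670-26401969, plus strand: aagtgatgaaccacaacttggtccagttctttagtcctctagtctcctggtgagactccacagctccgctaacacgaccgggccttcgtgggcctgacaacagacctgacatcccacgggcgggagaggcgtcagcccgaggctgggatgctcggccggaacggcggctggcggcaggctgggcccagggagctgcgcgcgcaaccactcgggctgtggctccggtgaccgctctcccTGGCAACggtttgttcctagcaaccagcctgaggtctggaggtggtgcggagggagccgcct
DNAH2 promoter, chr17:7717494-7717793, plus strand: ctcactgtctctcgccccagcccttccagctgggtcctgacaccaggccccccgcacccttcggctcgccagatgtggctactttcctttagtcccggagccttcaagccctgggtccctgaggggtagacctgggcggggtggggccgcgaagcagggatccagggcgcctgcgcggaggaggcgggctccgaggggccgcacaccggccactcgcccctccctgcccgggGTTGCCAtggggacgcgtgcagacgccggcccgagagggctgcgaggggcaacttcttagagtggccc

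Over all genes in the RefSeq table that were tested, 31.3% of those with the arm were higher under paclitaxel in GLI2 KO cells and 31.2% in WT cells, close to the 30.9% and 30.5% of those with a promoter and no arm. A match of letters is not evidence of binding, and a window without a match may still hold a site of other letters.

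Lists of related genes were counted in the same way, over genes that reach the count minimum in a DMSO group. Of 11 regulators of motile ciliogenesis, all at 1 CPM or more, 1 was higher and 7 lower in GLI2 KO cells, and 1 higher and 9 lower in WT cells, where 48.7% and 48.9% of all genes at that level were lower. FOXJ1, the forkhead factor of motile cilia, had 27 counts over the 3 GLI2 KO libraries with paclitaxel, against 1 with DMSO, and 15 counts in WT cells with paclitaxel, against 0 with DMSO. It was too low to be tested. GMNC, a coiled-coil regulator upstream of multiciliation, had 122 counts in GLI2 KO cells with paclitaxel, against 39 with DMSO, and in WT cells 30 counts with paclitaxel, against 5 with DMSO. It did not reach the minimum in a DMSO group, and is not counted. MCIDAS, its relative, fell by 0.52 ± 0.07 and by 0.21 ± 0.07. RFX2 fell by 0.36 ± 0.06 and by 0.31 ± 0.05, while RFX3 rose by 0.15 ± 0.06 in GLI2 KO cells (adjusted p = 0.0349) and had -0.024 ± 0.06 in WT cells (adjusted p = 0.745).

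Of 26 axonemal genes with other names, of the central apparatus and other parts, 10 were higher (38.5%) and 7 lower (26.9%) in GLI2 KO cells, and 7 higher (26.9%) and 8 lower (30.8%) in WT cells, beside 27.7% higher and 38.7% lower of all genes in GLI2 KO cells and 28.7% and 38.6% in WT cells. ENKUR, a microtubule inner protein, rose by 2.34 ± 0.27 in GLI2 KO cells and by 2.06 ± 0.26 in WT cells. SPAG6, a central apparatus protein too low in DMSO to be counted, had log2 changes of 3.11 ± 0.37 and 2.97 ± 0.38. TEKT2, a tektin of the doublet, had 45 counts in GLI2 KO cells with paclitaxel and 9 with DMSO, and 50 counts in WT cells with paclitaxel and 0 with DMSO. Of 4 light chains and related subunits, 2 were higher and 1 lower in GLI2 KO cells, and 2 higher and 2 lower in WT cells. The inner arm light chain DNALI1, not counted, had 47 counts in GLI2 KO cells with paclitaxel against 7 with DMSO, and 28 in WT cells with paclitaxel against 2 with DMSO.

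Of 15 factors that preassemble axonemal dyneins in the cytoplasm, 7 were higher (46.7%) and 6 lower (40.0%) in GLI2 KO cells. In WT cells 5 were higher (33.3%) and 6 lower (40.0%). Of all 18242 genes, 27.7% were higher and 38.7% lower in GLI2 KO cells, and 28.7% and 38.6% in WT cells. ZMYND10, an assembly factor for outer and inner arms, rose by 1.38 ± 0.23 and by 1.67 ± 0.22, while PIH1D1, a subunit of a general chaperone complex, fell by 0.54 ± 0.04 and by 0.59 ± 0.04. Of 31 genes of dynein 2 and intraflagellar transport, which builds all cilia, 4 were higher and 17 lower (54.8%) in GLI2 KO cells, and 3 higher and 22 lower (71.0%) in WT cells. Of the 10 genes of cytoplasmic dynein 1, 1 was higher and 7 lower in GLI2 KO cells, and 2 higher and 5 lower in WT cells. All genes of these last 2 lists averaged 1 CPM or more, where 25.4% of all genes were higher and 48.7% lower in GLI2 KO cells, and 25.2% and 48.9% in WT cells.

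Markers of other cell types were summed per library. The multiciliated list had 7 of 12 genes in the table, with summed levels of 106 to 122 CPM in GLI2 KO cells with paclitaxel and 81.1 to 84.7 CPM with DMSO, and 77.6 to 81.8 CPM in WT cells with paclitaxel and 48.3 to 52.2 CPM with DMSO. TUBA1A, a tubulin of many cell types, made up most of these sums, the list also holds RSPH1, and FOXJ1 was at 0 in WT cells with DMSO. The sums of this list moved with paclitaxel, but its member CAPS went the other way. CAPS averaged 0.376 CPM with paclitaxel against 0.592 CPM with DMSO in GLI2 KO cells, and 0.272 against 0.512 CPM in WT cells. The part of this list in the axonemal results was not tested. For 5 of 6 genes, the haematopoietic list summed to 3.01 to 3.59 CPM in GLI2 KO cells with paclitaxel and 0.808 to 0.941 CPM with DMSO, and to 1.23 to 1.72 CPM in WT cells with paclitaxel and 0.318 to 0.463 CPM with DMSO. It too moved with paclitaxel and with genotype, and its part was not tested. The germ cell list, with 4 of 12 genes, summed to 80.1 to 80.7 and 83.5 to 88.9 CPM in GLI2 KO cells with paclitaxel and DMSO. In WT cells it summed to 77.3 to 81.1 and 93.0 to 95.4 CPM. ODF2, lower with paclitaxel, made up most of these sums, while TSSK6 and SYCP3 were higher in both genotypes. SYCP3 averaged 0.442 against 0.193 CPM in GLI2 KO cells and 0.53 against 0.170 CPM in WT cells. The luminal list, with 5 of 6, ranged from 68.5 to 80.7 CPM over all libraries, mostly from ERBB2 and FOXA1. Within it PGR averaged 0.84 and 2.48 CPM in GLI2 KO cells with paclitaxel and DMSO, against 0.0071 and 0.0038 CPM in WT cells. TFF1 and GATA3 were also higher in GLI2 KO cells, and FOXA1 was lower.

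Between the genotypes, more axonemal genes were called higher in GLI2 KO cells than lower. The library numbers in the titles ran from 1 to 6 for WT and from 7 to 12 for GLI2 KO, so genotype and library order cannot be told apart. With paclitaxel 19 of the 45 genes were higher (42.2%), 3 lower (6.67%) and 23 did not pass. Of all 18242 genes, 26.1% were called higher and 25.1% lower. In DMSO 17 of the 45 were higher (37.8%), 5 lower (11.1%) and 23 did not pass, while 25.1% of all 18242 genes were higher and 23.1% lower. The 17 include CFAP96, whose place among the 45 rests on its GLI2 KO libraries with DMSO. Over all 62 tested genes 23 were higher and 4 lower with paclitaxel, beside 23.4% and 22.2% of all genes tested. The 23 include DNAI1, whose difference is not read as a test. In DMSO 19 of the 62 were higher and 6 lower, beside 22.0% and 19.6%. The median log2 difference of the 45 genes was 0.154 with paclitaxel and 0.216 in DMSO, against -0.0048 and 0.0011 over all 18242 genes. Most of the calls higher were in genes of at least 1 CPM. There 17 of 30 were higher with paclitaxel (56.7%, against 31.0% of all genes at that level) and 15 of 30 in DMSO (50.0%, against 29.2%).

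Of the 11 heavy chains 8 were higher in GLI2 KO cells and 1 lower with paclitaxel. In DMSO 7 were higher and 2 lower. Of these 9 calls in DMSO, those of DNAH1, DNAH3, DNAH5, DNAH6, DNAH7, DNAH12 and DNAH17 are lost on leaving out 1 library. Of the 9 with paclitaxel, those of DNAH10 and DNAH14 are. All heavy chains but DNAH12 averaged at least 1 CPM. Of all genes tested at that level, 31.1% were higher and 27.8% lower with paclitaxel, and 29.2% and 26.6% in DMSO. The 11 include DNAH3, which led the selection of the family, and DNAH17, too low in DMSO to be counted under paclitaxel. DNAH3, by the values given above, was higher in GLI2 KO cells by 1.08 ± 0.10 with paclitaxel (adjusted p = 4.1e-09). In DMSO it was higher by 1.29 ± 0.39 (adjusted p = 0.0105), a call that is lost without GLI2 KO DMSO replicate 3 (1.22). The libraries of the genotypes did not overlap under either treatment. DNAH11 was higher by 0.74 ± 0.07 with paclitaxel (adjusted p = 4.92e-09) and by 0.80 ± 0.08 in DMSO (adjusted p = 4.37e-09). DNAH17 was higher by 0.48 ± 0.12 with paclitaxel (adjusted p = 0.00173), and by 1.15 ± 0.38 in DMSO (adjusted p = 0.0161), which is lost without GLI2 KO DMSO replicate 2 (0.70) or WT DMSO replicate 1 (1.05).

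DNAH7 was higher in GLI2 KO cells by 0.96 ± 0.16 with paclitaxel and by 0.64 ± 0.17 in DMSO, the second with overlapping groups and lost without GLI2 KO DMSO replicate 3 (0.41). DNAH6 was higher by 0.63 ± 0.19 in DMSO, which is lost without WT DMSO replicate 1 (0.49), and had 0.30 ± 0.16 with paclitaxel (adjusted p = 0.132). DNAH2 was higher by 0.30 ± 0.06 and by 0.29 ± 0.06, and DNAH5 by 0.55 ± 0.07 and by 0.22 ± 0.07, the second lost without WT DMSO replicate 1 (0.19). DNAH1 was the exception under both treatments. It was lower by a log2 difference of -0.68 ± 0.14 with paclitaxel (adjusted p = 0.00115) and of -0.55 ± 0.17 in DMSO (adjusted p = 0.0172). In DMSO the groups overlap and the call is lost without GLI2 KO DMSO replicate 1 (-0.43), GLI2 KO DMSO replicate 2 (-0.43) or WT DMSO replicate 2 (-0.45). DNAH12 differed by -0.71 ± 0.27 in DMSO (adjusted p = 0.0362), where the groups overlap and leaving out any 1 of 4 libraries, GLI2 KO replicates 2 and 3 and WT replicates 2 and 3, ends the call (-0.69 to -0.53). With paclitaxel DNAH12 did not pass (0.15 ± 0.16, adjusted p = 0.488).

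Other genes that differed between the genotypes came from several structures. CFAP43 had 0.709, 0.992 and 1.35 CPM in GLI2 KO cells with paclitaxel, against 0.350, 0.433 and 0.523 CPM in WT cells with paclitaxel. In DMSO it had 0.333, 0.283 and 0.489 CPM in GLI2 KO cells, against 0.183, 0.159 and 0.147 CPM in WT cells. CFAP43 did not overlap between genotypes and was higher by 1.23 ± 0.23 with paclitaxel (adjusted p = 0.000103) and by 1.17 ± 0.32 in DMSO (adjusted p = 0.00466). DNAI1 had a log2 difference of 1.59 ± 0.46 with paclitaxel and -0.21 ± 1.05 in DMSO, and since its GLI2 KO paclitaxel libraries alone, as a group, reached the count minimum, its difference is not read as a test. DRC3 and CFAP184 were higher by 0.95 ± 0.15 and 0.73 ± 0.13 with paclitaxel and by 0.63 ± 0.17 and 0.68 ± 0.14 in DMSO.

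CFAP119 was higher by 0.74 ± 0.08 with paclitaxel and by 0.80 ± 0.07 in DMSO, with PHKG2, with which it overlaps, at -0.21 and -0.074. CFAP96 was higher in DMSO by 1.18 ± 0.36 (adjusted p = 0.00909) and had -0.049 ± 0.22 with paclitaxel. CFAP97, the gene with the highest CPM of the family, was lower by a log2 difference of -0.31 ± 0.03 with paclitaxel (adjusted p = 4.44e-09) and of -0.61 ± 0.03 in DMSO (adjusted p = 1.37e-14). CFAP65 differed by -0.56 ± 0.20 with paclitaxel (adjusted p = 0.0234), but not by DESeq2 and not without GLI2 KO paclitaxel replicates 1 (-0.57) or 2 (-0.45) or WT paclitaxel replicate 3 (-0.36).

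**Figure D5:**
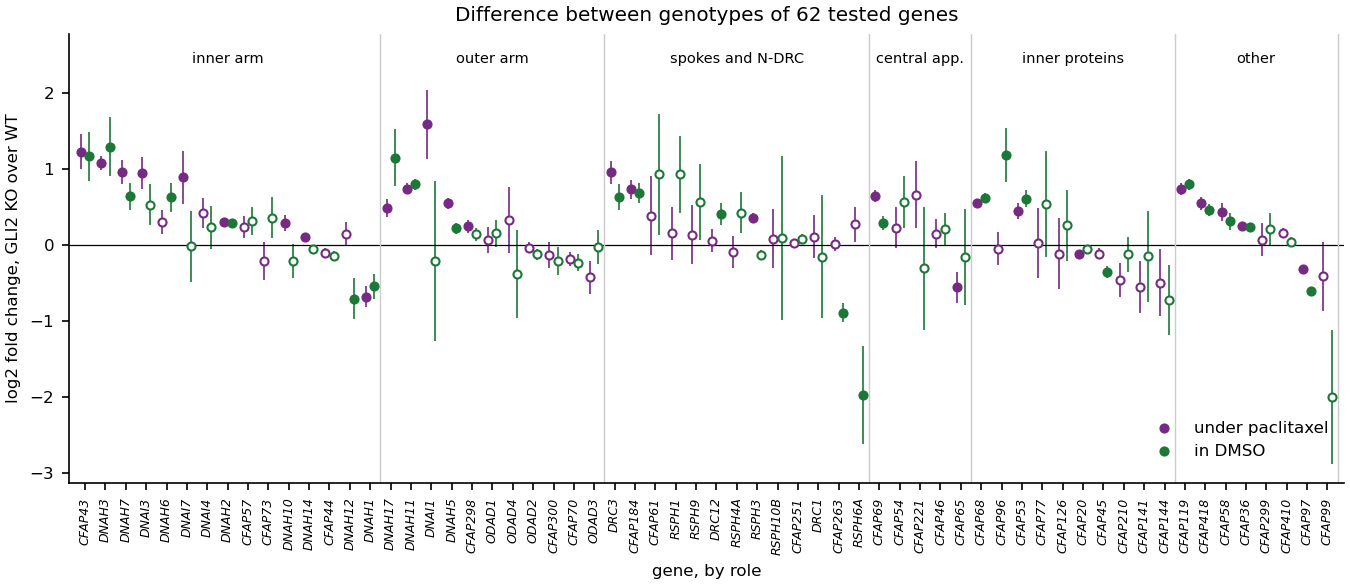
Log2 fold change of GLI2 KO over WT cells with paclitaxel (purple) and in DMSO (green) for the 62 tested genes, by role, with standard errors as bars; filled circles passed the test and open ones did not. Most filled circles lie above 0, among them CFAP43 at 1.23 and 1.17. The few below 0 include DNAH1 at -0.68 and -0.55 and RSPH6A in DMSO at -1.98. The filled circle of DNAI1 with paclitaxel is not read as a test.

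The response to paclitaxel differed between genotypes, by the test of the difference itself, for 5 of the 45 genes (11.1%). All had the larger change in GLI2 KO cells or a smaller fall there. Of all 18242 genes, 7.80% were called in that direction and 8.08% in the other. Over all 62 tested genes the number was 6, beside 6.56% and 6.93% of all genes tested. These 6 include RSPH6A, whose difference of responses is given below as a description without a test. No axonemal gene was called in the other direction by edgeR, and 11 of them had an unadjusted p below 0.05 in either direction. CFAP263 had 3.37, 3.38 and 3.41 CPM in GLI2 KO cells with paclitaxel, against 0.987, 0.953 and 1.05 CPM with DMSO. In WT cells CFAP263 had 3.76, 3.31 and 3.03 CPM with paclitaxel, against 1.88, 1.89 and 1.78 CPM with DMSO. The treated libraries overlap between genotypes, and the untreated GLI2 KO libraries lie below the untreated WT libraries (-0.89 ± 0.12, adjusted p = 1.02e-06), with a difference of responses of 0.90 ± 0.15 (adjusted p = 0.000337).

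RSPH6A had the same pattern at a lower level, with a genotype difference in DMSO of -1.98 ± 0.64 (adjusted p = 0.0147). Its difference of responses was 2.25 ± 0.68, a description without a test, since the gene was too low in DMSO to be counted. That difference was 2.35 by DESeq2 and 2.11 without WT paclitaxel replicate 2. The untreated GLI2 KO libraries of RSPH6A held 2, 1 and 1 counts and the untreated WT libraries 8, 5 and 5. Its call in DMSO is lost without GLI2 KO DMSO replicate 2 (-1.79), GLI2 KO DMSO replicate 3 (-1.78) or WT DMSO replicate 1 (-1.82). The difference of responses was 2.07, 2.05 and 2.09 without these in turn. RSPH3, a spoke stalk protein, had 12.4, 13.2 and 12.9 CPM in GLI2 KO cells with paclitaxel, against 8.59, 8.34 and 9.83 CPM with DMSO. In WT cells RSPH3 had 10.6, 9.06 and 10.6 CPM with paclitaxel, against 9.93, 9.54 and 9.93 CPM with DMSO. The treatments are apart in GLI2 KO cells (0.53 ± 0.07) and overlap in WT cells (0.04 ± 0.07), and the responses differed by 0.49 ± 0.10 (adjusted p = 0.00108). CFAP97 differed by 0.30 ± 0.04 (adjusted p = 5.19e-05), since its fall was smaller in GLI2 KO cells. DNAH5 differed by 0.33 ± 0.10 and DNAH14 by 0.16 ± 0.05, and these calls are lost on leaving out any 1 of 7 libraries (0.28 to 0.34) and any 1 of 6 libraries (0.14 to 0.17).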

How the data were processed

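RNA of 12 samples in 4 groups of 3 was sequenced. The authors deposited raw counts per gene, after work with hg38, STAR, DESeq2 1.36.0 and Trim Galore 0.6.7 (per the submitters' processing notes). Which counter, annotation and strand setting were used is not stated there or in the labels. The count table holds 25049 genes and no row total below 20.

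From the counts, edgeR 4.0.16 in R 4.3.3 was fitted to all 12 samples with 1 mean per group (8 residual degrees of freedom), TMM factors, a minimum count of 10 and a robust quasi-likelihood F test. Benjamini-Hochberg adjustment ran over 21974 genes, with a call below 0.05. CPM values use TMM-scaled library sizes, and the SE of a log2 fold change is its size over the square root of F. Library totals of 83230948 to 109018776 counts set the precision, and counting intervals (95%, exact) and the floor of 3 counts per library cover counting error only. Replicates are numbered in accession order. Exon lengths and overlaps came from GENCODE on GRCh38, and promoters from RefSeq GRCh38.p14.

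Named genes were DNAH3, the 10 largest passing rises and falls of each comparison, genes near 0 in DMSO, the 10 highest per exon length and up to 4 leading genes of each other list. Others were named after their values were seen, to complete a structure. After the data were seen, calls under paclitaxel were restricted to genes with at least 10 counts in all 3 libraries of a DMSO group. The main counts between genotypes and of the difference of responses use the same genes. The members and lists were chosen with earlier results of these data known. The fit was tested on simulated data. Alternatives were other scaling factors, other minimum counts, DESeq2 1.42.0, a fit of the 2 groups compared, leaving out genes with shared exons, and leaving out each replicate.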

Additional observations from a re-analysis of the deposited data

Results flagged for a closer look

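For 5 of the 45 genes the response to paclitaxel differed between GLI2 KO and WT cells by the test of the difference itself. The log2 response in GLI2 KO cells minus that in WT cells was 0.90 for CFAP263, 0.49 for RSPH3, 0.33 for DNAH5, 0.30 for CFAP97 and 0.16 for DNAH14. For RSPH6A, too low in DMSO to be counted, it was 2.25, given as a description without a test. All 4 groups of 3 samples are too small for a check of single outlying samples.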

How the results depend on the processing

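Over all 62 tested genes, DNAH3 included, 38 were higher under paclitaxel in GLI2 KO and 34 in WT cells, against 24 and 20 with only genes at the count minimum in a DMSO group and DNAH3 not counted, a setting chosen after seeing the data. The 24 became 22 to 29 and the 20 became 18 to 25 under the alternatives. The genes called lower were the same in number in both sets. In GLI2 KO cells under paclitaxel it was 8, and became 4 with upper-quartile factors, 4 with library totals, 4 without genes that share over 20% of their exon bases and 5 with a minimum count of 50. In WT cells it was 10, and became 6 with upper-quartile factors, 4 with library totals and 6 without the sharing genes. Upper-quartile factors moved the median of all genes by 0.12 in GLI2 KO and 0.13 in WT cells, and library totals by 0.18 and 0.16. For the difference of responses 0 genes were lower, and 1 was with upper-quartile factors and with a minimum count of 50. CFAP97 in GLI2 KO cells reversed, to 0.049 with upper-quartile factors and 0.104 with library totals.

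Leaving out 1 replicate at a time, the genes called lower under paclitaxel numbered 5 to 8 in GLI2 KO and 8 to 10 in WT cells, those lower in GLI2 KO cells 3 to 4 with paclitaxel and 3 to 7 in DMSO, and those lower for the difference 0 to 1. Of the 45 genes, 22 to 24 in GLI2 KO and 18 to 21 in WT cells were higher. Of all 62, genes called higher numbered 34 to 38, 29 to 33, 19 to 24, 16 to 19 and 4 to 6 in the same order, and all calls 41 to 44, 38 to 42, 23 to 28, 21 to 25 and 4 to 6. Without GLI2 KO DMSO replicate 2, 3 genes were lower in GLI2 KO cells in DMSO, against 6 with it. Without GLI2 KO paclitaxel replicate 1, 5 were lower under paclitaxel in GLI2 KO cells, against 8.

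The summed level with upper-quartile factors was 439.3 CPM in GLI2 KO cells with paclitaxel, 375.1 with DMSO, 424.1 in WT cells with paclitaxel and 397.9 with DMSO. With library totals it was 449.6, 369.7, 425.8 and 393.0 CPM in the same order. Without DNAH3 it was 410.5 CPM in GLI2 KO cells and 394.0 CPM in WT cells with paclitaxel. On leaving out replicates it ranged over 423.8 to 428.0, 394.2 to 397.3, 398.7 to 404.4 and 411.0 to 413.6 CPM.

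No paired analysis was run, because the labels carry no replicate numbers. The titles carry library numbers, but whether neighbouring numbers mark pairs is not stated. Genes of few counts have wide standard errors, and a minimum count of 50 leaves many of them untested.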
